A study of Mus musculus with 6 samples.

Results

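The metalloproteinases, their tissue inhibitors and the cathepsins were examined in medullary thymic epithelial cells with and without a functional Aire gene. Members were every probe set annotated with exactly 1 gene symbol that begins with Mmp, Adam, Adamts or Timp and a number or suffix, or with Cts and a letter, apart from Ctsg and Ctss. This rule used symbols and no measured value. It found 61 probe sets of the 12422 that were not controls, and these stood for 44 of 8251 genes. They comprised 13 matrix metalloproteinases (Mmp), 16 Adams, Adamts1, 3 Timps and 11 cathepsins. A further 2 probe sets named Adam1a together with another gene and were therefore not members.

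The wild-type group held 3 arrays, and so did the group in which both Aire copies were disrupted. Each array read RNA from 1 pool of thymi from 5 B6/129 F2 mice of both sexes, aged 3 to 5 weeks, so 15 animals stood behind each genotype. Sorted cells were negative for CD45 and positive for G8.8, with intermediate CDR1 and high B7.1, and their RNA went through 2 rounds of T7-based amplification. The disruption was carried in all cells of the animals, and the animals were pooled, so differences between single mice were not measured.

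Matrix metalloproteinases are zinc-dependent enzymes that cut collagens, gelatins, elastin and other matrix proteins. Timps block them by binding the active site. Adams are membrane proteins with a related zinc protease domain, and the catalytically active ones release growth factors, cytokines and receptors from the cell surface, whereas others lack the catalytic residues and act in adhesion. Cathepsins are mostly lysosomal cysteine or aspartic proteases, and in thymic epithelium and other antigen-presenting cells they degrade the invariant chain and produce peptides for MHC class II. Aire promotes transcription of many genes otherwise restricted to peripheral tissues.

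Signals are in arbitrary units after quantile normalization, and group values are geometric means over 3 arrays with the SD on the log2 scale. Differences are log2 values, Aire-deficient minus wild type, with their SE from limma. Signals under 1.8 were raised to that floor. A probe set was treated as dim on an array where its signal did not exceed 5.53, and a gene was tested if it exceeded this limit on at least 3 of the 6 arrays. Levels of different genes are not compared, since each probe set has its own response.

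The labelled cell type was checked with its markers. Krt8, Krt18, Epcam, Cd74, H2-Aa and Cd80 exceeded the dim limit on all 6 arrays, whereas Krt5 and Krt14 were dim on all 6. The targeted gene gave Aire signals of 59.9, 96.4 and 138 in wild type and of 202, 297 and 211 in the Aire-deficient cells, so its probe set does not check the genotype labels. The ratio of the 3-prime to the 5-prime beta-actin control, a sign of RNA quality or amplification, was 95.8 on wild-type array 2 and ranged from 4.38 to 13.8 on the other 5 arrays. The same ratio of the Gapdh control was 8, 87.9 and 26.3 on wild-type arrays 1, 2 and 3 and ranged from 5.94 to 16 on the Aire-deficient arrays. By Gapdh, wild-type array 3 thus also exceeded every Aire-deficient array. Differences of single members that turned sign or moved by more than 1.5 times without wild-type array 2 are given with and without it. Arrays with the same number in the labels deviated together, so a fit with that number as a block is given where it changes a call.

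Sequence around the annotated starts was compared between the classes without regard to signal. RefSeq promoter windows of assembly GRCm38.p6 were found for 27 of the 44 genes, as 32 windows, and the 250 bases before each start were searched on both strands for 4 motifs. The motif TGACTCA, known for binding AP-1, a pair of Fos and Jun family proteins, was present in 5 of 11 Mmp windows, 1 of 9 Adam windows, 0 of 3 Timp windows and 0 of 8 cathepsin windows, against 4.46% of all 32851 windows. The 5 Mmp genes were Mmp3, Mmp7, Mmp10, Mmp12 and Mmp13, which lie near each other on chromosome 9 along with Mmp8, and the Adam gene was Adam19. TATAAA, the core of the TATA box, was present before Mmp3, Mmp7, Mmp10 and Mmp13 and before Adamts1, and in 12.4% of all windows. CACGTG, a palindromic E-box that transcription factors of lysosomal genes are known to bind, was present before Ctsa, Ctsd, Ctsf and Ctsl of 7 cathepsin genes, before Adam10, Adam19 and Mmp7, and in 6.02% of all windows. GGGCGG, the GC box, was present in all 3 Timp windows, 4 of 9 Adam windows, 4 of 8 cathepsin windows and 3 of 11 Mmp windows. It was also present before Adamts1, and in 32.7% of all windows. Mmp windows held a median of 2 CG dinucleotides, against 8 for cathepsins, 17 for Adams, 18 for Timps and 6 for all windows. Most Mmp windows were those of the chromosome 9 genes, with 0 to 7, whereas Mmp11, Mmp14 and Mmp24 on other chromosomes held 14, 10 and 33.

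The 150 bases before the start are shown for the chromosome 9 Mmp genes, of which 5 hold the AP-1 motif, 4 of those the TATA box as well, and Mmp8 neither, and for Adam19, Timp3 and Ctsd as contrasts from the other classes. Capitals mark the AP-1 motif, the TATA box, the E-box and the GC box, each as spelled above or as its reverse complement. None of the marked motifs overlapped another. Positions, all on the forward strand except that of Ctsd, are chr9:7272364-7272513 for Mmp13, chr9:7347224-7347373 for the start of Mmp12 that holds the motif, of 2 annotated, chr9:7445672-7445821 for Mmp3, chr9:7502192-7502341 for Mmp10, chr9:7558279-7558428 for Mmp8 and chr9:7691940-7692089 for the start of Mmp7 that holds the motif, of 2. They are chr11:46055834-46055983 for the start of Adam19 with the motif, of 3 annotated, chr10:86300262-86300411 for Timp3 and chr7:142387828-142387977 on the reverse strand for Ctsd.
Mmp13: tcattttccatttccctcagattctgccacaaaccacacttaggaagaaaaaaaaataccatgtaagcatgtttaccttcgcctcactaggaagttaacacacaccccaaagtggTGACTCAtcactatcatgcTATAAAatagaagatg
Mmp12: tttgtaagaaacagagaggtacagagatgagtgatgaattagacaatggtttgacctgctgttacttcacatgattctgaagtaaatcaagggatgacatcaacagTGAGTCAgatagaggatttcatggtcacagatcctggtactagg
Mmp3: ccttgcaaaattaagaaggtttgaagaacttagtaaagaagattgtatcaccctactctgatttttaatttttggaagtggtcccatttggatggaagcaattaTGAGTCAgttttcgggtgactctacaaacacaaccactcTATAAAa
Mmp10: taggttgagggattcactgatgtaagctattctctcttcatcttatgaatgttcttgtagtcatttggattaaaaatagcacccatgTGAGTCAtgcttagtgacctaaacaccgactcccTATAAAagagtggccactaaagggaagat
Mmp8: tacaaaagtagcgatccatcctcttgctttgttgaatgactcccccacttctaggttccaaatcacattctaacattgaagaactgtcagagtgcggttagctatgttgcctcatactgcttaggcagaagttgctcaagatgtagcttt
Mmp7: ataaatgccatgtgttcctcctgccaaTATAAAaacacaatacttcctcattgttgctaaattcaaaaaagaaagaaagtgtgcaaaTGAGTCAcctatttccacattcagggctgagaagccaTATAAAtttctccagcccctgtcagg
Adam19: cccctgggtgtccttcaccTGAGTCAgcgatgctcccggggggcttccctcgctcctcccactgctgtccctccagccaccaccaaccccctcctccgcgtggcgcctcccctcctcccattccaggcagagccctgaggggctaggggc
Timp3: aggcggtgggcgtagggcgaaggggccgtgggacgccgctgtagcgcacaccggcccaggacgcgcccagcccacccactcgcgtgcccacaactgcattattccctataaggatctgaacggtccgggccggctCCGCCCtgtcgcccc
Ctsd: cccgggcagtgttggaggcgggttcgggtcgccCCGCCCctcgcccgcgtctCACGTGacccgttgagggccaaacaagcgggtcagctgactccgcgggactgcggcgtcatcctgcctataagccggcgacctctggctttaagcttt
In Mmp13 the first base of the AP-1 motif stood 35 bases before the annotated start and that of the TATA box 16 bases before it. The AP-1 motif stood 44 bases before the start in Mmp12, 46 in Mmp3, 63 in Mmp10 and 63 in Mmp7. In Adam19 it stood 131 bases before the start. These letters describe the windows and do not show that a factor binds there. Of the 6 genes with the AP-1 motif, Mmp13, Mmp12 and Mmp7 had differences below 0 and Adam19 one above 0, and Mmp3 and Mmp10 were too dim to be tested. No relation between the motif and the differences was tested.

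**Figure D1:**
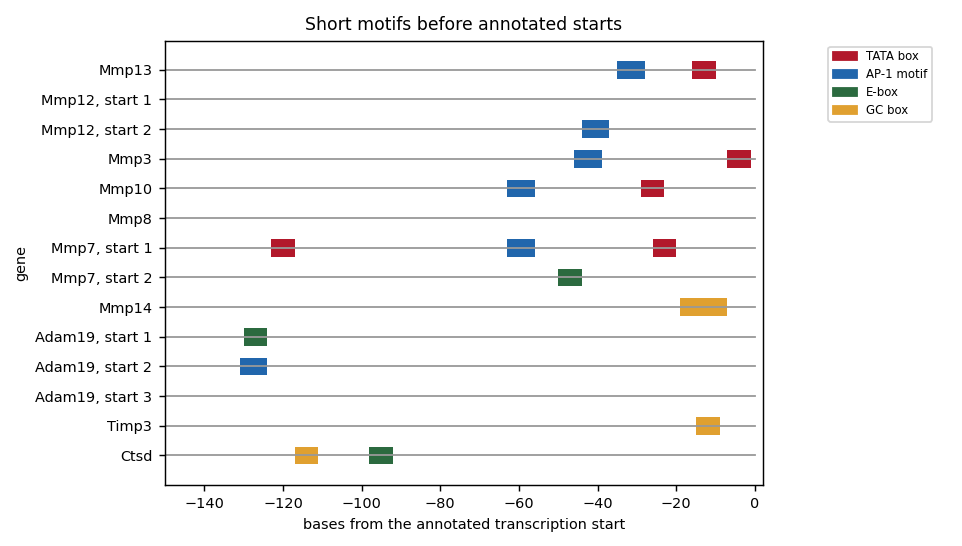
Positions of 4 short motifs in the 150 bases before annotated starts, with distance from the start in bases on the horizontal axis and 1 line per RefSeq start. Blue bars (AP-1 motif) stand 35 to 63 bases before the start in 5 chromosome 9 Mmp genes and 131 bases before it in Adam19. Timp3, Mmp14 and Ctsd show the GC box (yellow).

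Signals of these families ranged from none above the dim limit to clear signal on every array. Of the 44 genes 30 were tested and 14 were not, and 10 of the latter were dim on all 6 arrays. Those 10 were Mmp2, Mmp8, Mmp10, Mmp16 and Mmp24, the sperm Adams Adam2 and Adam4, the non-catalytic Adam22, Adamts1, and Ctsw, a cathepsin of cytotoxic lymphocytes. Mmp16 and Mmp24 lay at the floor on all 6 arrays. Among all 8251 genes 5950 were tested and 1298 were dim on all 6 arrays. Cathepsins had 10 of 11 genes tested, Adams 11 of 16, Mmps 7 of 13 and Timps 2 of 3. Dim signal on an array bounds a level and does not show that a transcript was absent.

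**Figure D2:**
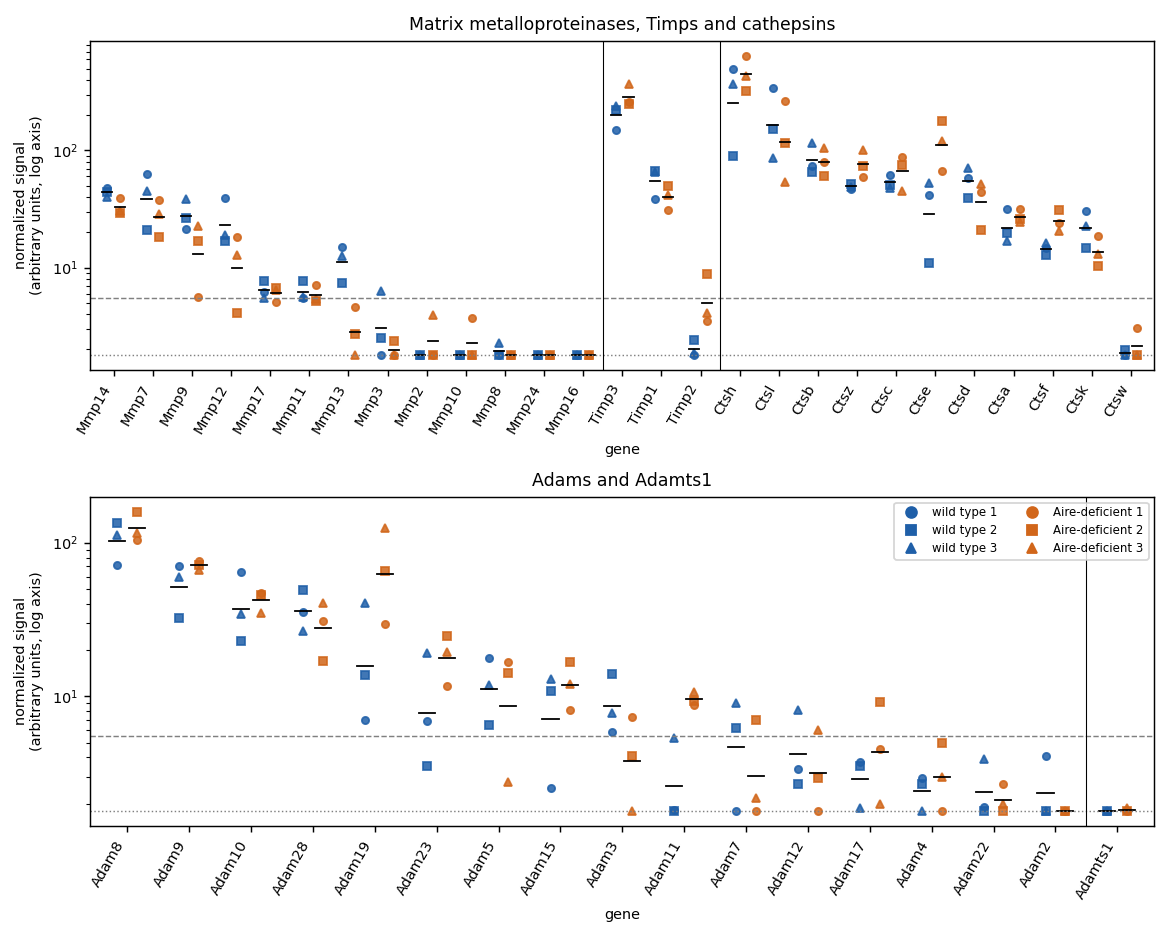
Normalized signal of each of the 44 genes on each array (log axis), with wild type in blue, Aire-deficient in orange, marker shape for the replicate number and black bars for geometric means of 3 arrays. The dashed line is the dim limit of 5.53 and the dotted line the floor of 1.8; genes are ordered within a class by mean signal for display. The 3 Adam11 points of Aire-deficient cells lie above the dim limit and the 3 of wild type below it, and the reverse holds for Mmp13.

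No member passed the comparison of genotypes without a block. In the limma fit 0 of 30 tested genes had an adjusted p under 0.05, where 1.71% of all 5950 genes did (1.33% lower and 0.387% higher). That split depends on the scaling, with 80 genes lower and 63 higher over the whole table on the values as deposited and 74 and 57 after median scaling. By unadjusted p, 2 members were lower at 0.05 (8.32% of all genes) and 4 higher (6.82%). The smallest adjusted p was 0.105, for Mmp13. Groups did not overlap for 7 of the 30 genes, against 21.3% of all tested genes, which is close to the background. Lower members without overlap were 2 (10.7% of all genes) and higher ones 5 (10.6%). Of these 7, Mmp13 and Mmp14 were lower and Adam11, Timp3, Ctse, Ctsf and Ctsz were higher. A difference of 2-fold or more without overlap was seen for 3 members (9.56% of all genes), lower for Mmp13 (5.6%) and higher for Adam11 and Ctse (3.97%). With every probe set tested, 0 of 36 member probe sets passed, against 1.73% of all (1.38% lower and 0.348% higher). With the replicate number as a block 1 member fell and 2 rose, against 3.7% lower and 2.59% higher among all genes, 6.29% in all. They were Mmp13 (adjusted p = 0.0499), Adam19 (adjusted p = 0.00351) and Ctse (adjusted p = 0.0442) by the blocked limma fit. Between arrays of the same number 10 of the 30 genes were higher in Aire-deficient cells in all 3 pairs, as were 22.4% of all tested genes, and 9 were lower in all 3, as were 20.8%.

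**Figure D3:**
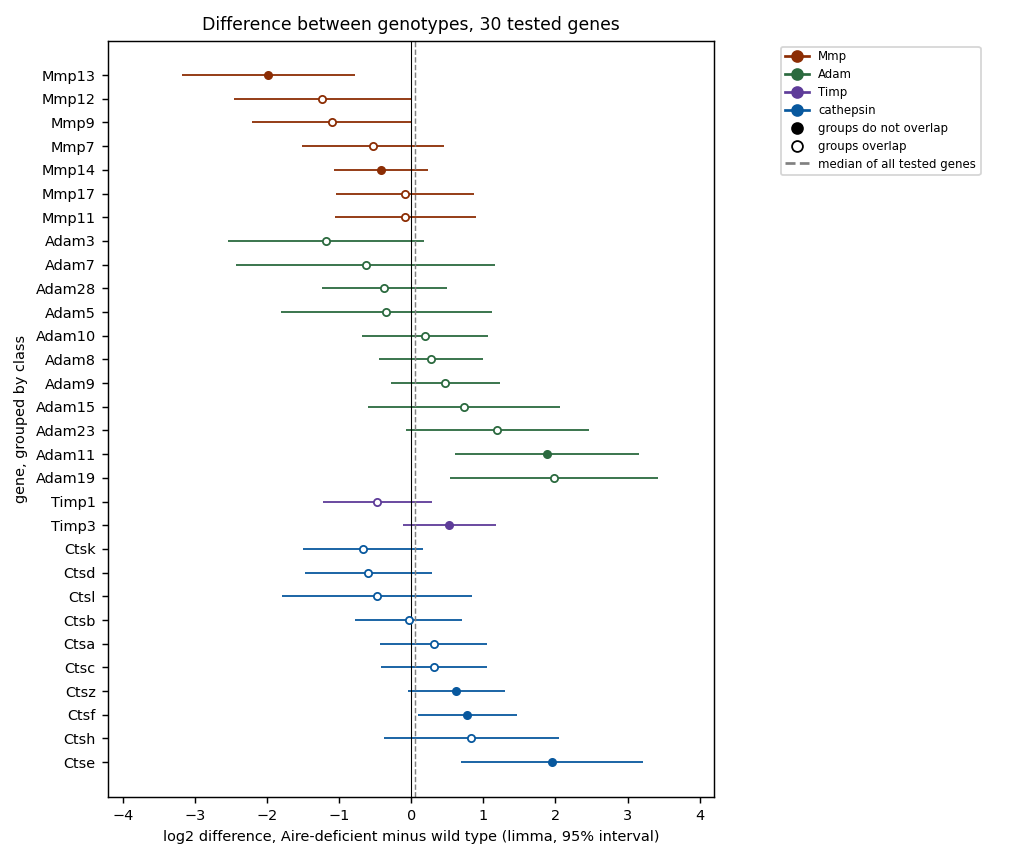
Log2 difference of the 30 tested genes, Aire-deficient minus wild type, as points with 95% intervals from the unblocked limma fit, coloured by class; filled points mark genes whose groups do not overlap, and the dashed line marks the median of all tested genes, 0.05. All 7 Mmp points lie below 0, while those of Adams and cathepsins lie on both sides.

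The tested Mmp genes all lay below 0. Their median difference was -0.53, against 0.05 for all tested genes, of which 2800 lay below 0 and 3150 above, and their differences ranged from -1.98 to -0.08. On the values as deposited and after median scaling all 7 again lay below 0, with medians of -0.38 in both, although those scalings moved the median of all genes to 0.18. With a term for the beta-actin ratio 5 of 7 lay below 0, and so did 5 of 7 without wild-type array 2, where the median was -0.997. A filter that asks for signal on 3 arrays lets genes pass through the group in which they are brighter, so this median describes the 7 tested genes and not all 13.

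The collagenases are Mmp13 and Mmp8. Mmp13, which cuts fibrillar collagen and is best known from cartilage and bone, gave 15.1, 7.38 and 12.5 in wild type and 4.63, 2.7 and 1.8 in Aire-deficient cells. All 3 Aire-deficient signals were dim and all 3 wild-type signals were not, so the groups did not overlap. The geometric means were 11.2 (SD 0.53, n = 3) and 2.82 (SD 0.68, n = 3), and against the dim limit wild type was at least 2.02-fold higher. The log2 difference of -1.98 ± 0.54 (SE) had a limma adjusted p of 0.105, and of 0.0499 with the block. Mmp13 passed the filter through its wild-type arrays alone, so it had to differ once it was tested. With array weights its adjusted p was 0.0318, and with the block but without the arrays of number 1, 2 or 3 it was 0.136, 0.0829 and 0.163, so the blocked call needed all 3 pairs. It was also not called with the block when every probe set was tested. Mmp8, the collagenase stored in neutrophil granules, was dim on all 6 arrays, with 2.27 on wild-type array 3 and the floor on the other 5.

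Of the gelatinases, Mmp9 was measured and Mmp2 was dim. Mmp9 gave 21.2, 26.3 and 38.3 in wild type and 5.62, 17 and 22.6 in Aire-deficient cells. The highest Aire-deficient array exceeded the lowest wild-type array, so the groups overlapped, but within each replicate number wild type was higher. Its difference was -1.10 ± 0.50 (adjusted p = 0.329, or 0.0753 with the block, limma). Without Aire-deficient array 1, which was the lowest, the difference was -0.50. A second probe set, of a design that can bind several family members, gave a difference of -0.53 with signals from 1.8 to 6.4.

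Mmp12, the elastase of macrophages, gave 39.2, 16.8 and 18.9 in wild type and 18.3, 4.07 and 12.9 in Aire-deficient cells. Wild type was higher in each pair of arrays, and the groups overlapped. The difference was -1.23 ± 0.55 (adjusted p = 0.329, or 0.0617 with the block, limma), and it was -0.58 without Aire-deficient array 2. The probe set used was built with relaxed design rules, and the other probe set of Mmp12 gave signals of 2.45 to 8.07 with a difference of 0.06. The 2 probe sets thus differed in sign, and only the first was bright enough to be tested. With the block but without the arrays of number 3 its adjusted p was 0.0458.

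The remaining Mmps differed by less. Mmp14, a membrane-bound enzyme that activates pro-Mmp2, gave 47.8, 44 and 40 in wild type and 39.6, 29.1 and 30.7 in Aire-deficient cells. The groups did not overlap, though the highest Aire-deficient array stood just under the lowest wild-type one and they overlapped on the values as deposited, and the difference was -0.42 ± 0.29 (95% interval -1.07 to 0.23). Mmp7, the matrilysin of glandular epithelium, gave 62.8, 20.8 and 44.9 against 37.9, 18.2 and 28.5, with wild type higher in each pair and the groups overlapping (difference -0.53 ± 0.45). Leaving out wild-type array 2 gave -0.997, and leaving out array 1 of the same group gave -0.18. For Mmp11, a stromelysin, the interval of the difference was -1.06 to 0.90, and for Mmp17, a membrane-anchored member, it was -1.04 to 0.88, and without wild-type array 2 the differences of -0.08 in each turned to 0.073 and 0.046. Both had means close to the dim limit, at 6.2 and 5.86 for Mmp11 and 6.4 and 6.03 for Mmp17. Mmp3 exceeded the dim limit only on wild-type array 3, with 6.32, and was not tested.

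Markers of neutrophils, macrophages and dendritic cells were read on the same arrays as the secreted Mmps. In bulk cells, fewer cells of a type and less RNA per cell cannot be told apart. Of 12 neutrophil markers measured 6 of 9 tested fell and 0 rose, where 1.33% of all tested genes fell and 0.387% rose. The summed signal of the 12 was 340 to 870 in wild type and 124 to 137 in Aire-deficient cells. The 6 that fell were Ly6g, S100a8, S100a9, Camp, Ltf and Ngp. Of these Ltf, Ly6g and Ngp were dim on all 3 Aire-deficient arrays and passed the filter through their wild-type arrays alone, so they had to differ. Against the dim limit they were at least 4.49-, 4.81- and 4.59-fold higher in wild type. Elane and Cxcr2 were dim on all 6 arrays. Of the 3 tested markers that did not pass, Mpo had a difference of -1.80, Lcn2 of -0.24 and Csf3r of 0.72. Prtn3, too dim to be tested, was higher in Aire-deficient cells without overlap. Neutrophils are a known source of Mmp8, which was dim on all 6 arrays, and of Mmp9. Of 12 macrophage and dendritic cell markers 0 of 6 tested passed without the block. With it Cd14 fell (adjusted p = 0.00595) and Cd68 rose (adjusted p = 0.0234, limma), where 3.7% of all tested genes fell and 2.59% rose. The sum of these 12 markers was 292 to 409 in wild type and 251 to 275 in Aire-deficient cells. Itgam, Marco and Siglec1 were dim throughout. The gap between these ranges came from Cd14, and Lyz2, the other bright marker, had a difference of -0.02. Csf1r had a difference of -1.54, Itgax of 0.48 and Mrc1 of 0.63. Cd14 gave 168, 207 and 92.2 against 68.3, 43.9 and 32.3, and Cd68 gave 7.93, 4.15 and 9.75 against 24.7, 20.8 and 19.2. Both cell types carry CD45, and the sort took CD45-negative cells. Their part in the values of Mmp9 and Mmp12 was not tested. Of 7 fibroblast, 6 endothelial and 8 thymocyte markers tested, 0 passed with or without the block. Fibroblast markers went both ways, with sums of 141 to 322 in wild type and 168 to 322 in Aire-deficient cells. Without overlap, Col1a1 was lower (difference -1.18) and Lum and Thbs2 were higher (0.96 and 0.91).

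**Figure D4:**
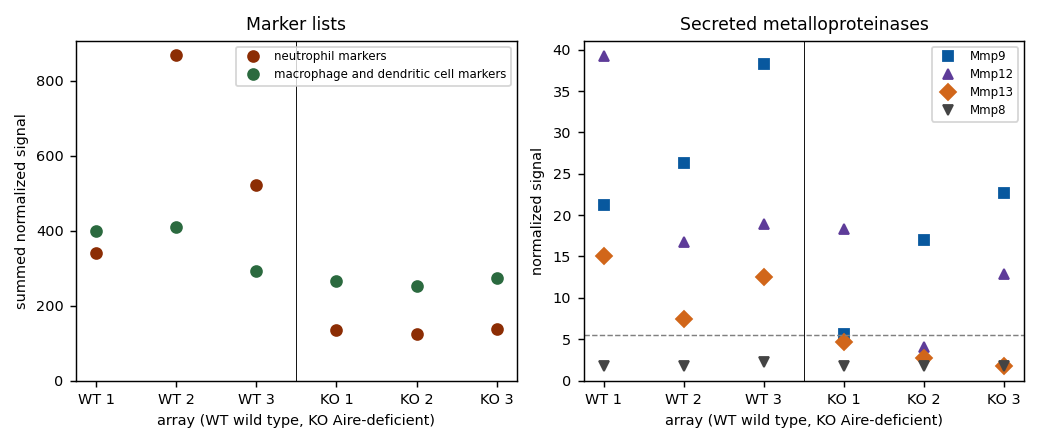
Left, summed normalized signal of the neutrophil markers and of the macrophage and dendritic cell markers on each array; right, normalized signal of Mmp9, Mmp12, Mmp13 and Mmp8 on the same arrays, with the dim limit of 5.53 dashed. Neutrophil marker sums are 340 or more in wild type and 137 or less in Aire-deficient cells, and Mmp8 stays under the dim limit on each array.

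Among the Adams the differences spread to both sides, with a median of 0.28 over 11 tested genes and a range from -1.19 to 1.98. By function, the 6 tested somatic Adams, mostly active proteases, had a median of 0.38, the 2 non-catalytic neural Adams 1.54 and the 3 sperm and epididymal Adams -0.63. Either other scaling raised the median of the 11 to 0.57, and it was 0.10 with the beta-actin term, and 0.019 to 0.47 with 1 array left out, lowest without wild-type array 1. None of the 11 passed without the block.

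Adam19, a protease known for releasing neuregulins, differed by a similar amount in each pair of arrays. Its signals were 7, 13.8 and 40.6 in wild type and 29.4, 65.7 and 125 in Aire-deficient cells, in the order of the replicate numbers. The arrays of number 3 were the highest and those of number 1 the lowest in both genotypes, so wild-type array 3 exceeded Aire-deficient array 1 and the groups overlapped. Within the pairs the log2 differences were 2.07, 2.25 and 1.62. The geometric means were 15.8 (SD 1.28, n = 3) and 62.2 (SD 1.04, n = 3), a 3.94-fold difference. The log2 difference of 1.98 had an SE of 0.65 without the block (adjusted p = 0.176) and of 0.28 with it (adjusted p = 0.00351, limma). The blocked call held on the values as deposited (adjusted p = 0.00108) and when each pair of arrays was left out (0.000757, 0.0129 and 0.00557 without numbers 1, 2 and 3), fits that share most of their arrays.

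**Figure D5:**
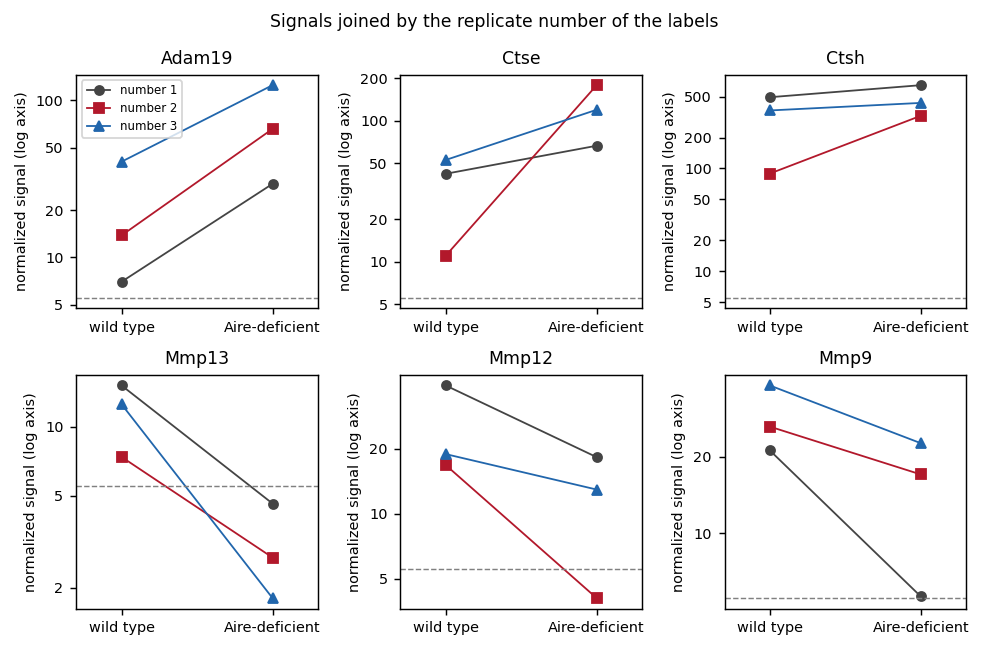
Normalized signal (log axis) of Adam19, Ctse, Ctsh, Mmp13, Mmp12 and Mmp9 in wild-type and Aire-deficient cells, with lines joining arrays of the same replicate number and the dim limit of 5.53 dashed. The 3 Adam19 lines run nearly in parallel, those of Ctse and Ctsh are steepest for number 2, and those of the 3 Mmp genes slope downward.

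The non-catalytic Adams are neural adhesion proteins that bind secreted Lgi proteins. Adam11 gave 1.82, 1.8 and 5.33 in wild type and 8.8, 9.35 and 10.6 in Aire-deficient cells. All wild-type signals were dim and all Aire-deficient signals were not, so Adam11 entered the test through the latter and had to differ, by at least 1.73-fold against the dim limit. Its log2 difference was 1.88 ± 0.58 (adjusted p = 0.146, or 0.0783 with the block, limma). Adam23 gave 6.9, 3.52 and 19.2 against 11.7, 24.7 and 19.3, and the groups overlapped. Its difference of 1.20 ± 0.57 was 0.64 without wild-type array 2, the array on which it was lowest.

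The widely expressed sheddases did not pass with or without the block. Adam10, which cleaves Notch receptors, gave 64.3, 22.9 and 34.4 against 47.1, 45.6 and 35.1, and wild-type array 2 was again the lowest. Its difference of 0.19 ± 0.39 turned to -0.15 without that array and to -0.29 with the beta-actin term. Adam17, which releases tumour necrosis factor, exceeded the dim limit on 1 array and was not tested. Adam9, a broadly expressed member, gave 70.3, 32.4 and 59.9 against 75.9, 71.8 and 66.9 (difference 0.47 ± 0.34), and its difference was 0.14 without wild-type array 2 and 0.10 with the beta-actin term. Adam8, an Adam of leukocytes, gave 71.2, 133 and 112 against 104, 159 and 115, a difference of 0.28 with a 95% interval of -0.45 to 1.00, or 0.47 without wild-type array 2. For these 3 genes the groups overlapped. Adam15 had a difference of 0.73 ± 0.60 and Adam28, also known from lymphocytes, -0.38 ± 0.39, or -0.15 without wild-type array 2.

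The Adams of sperm and epididymis, tissues whose genes Aire-expressing cells often transcribe, showed low signals. Adam3, a sperm surface protein, gave 5.87, 13.9 and 7.83 in wild type and 7.38, 4.07 and 1.8 in Aire-deficient cells. It was above the dim limit on all 3 wild-type arrays and on Aire-deficient array 1, and its difference was -1.19 ± 0.61 (adjusted p = 0.409, limma). A second Adam3 probe set lay at the floor on 5 of 6 arrays. Adam5 and the epididymal Adam7 had differences of -0.35 ± 0.66 and -0.63 ± 0.81, and without wild-type array 2 that of Adam5 was -0.74. The probe sets used for Adam3 and Adam5 were built with relaxed design rules, like those of Mmp12, Adam28 and Adamts1. Second probe sets of Adam2 and Adam5 were dim on all 6 arrays and were not tested. That of Adam5, of the standard design, had a difference of 0.50.

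The inhibitors did not move together. Timp3, which binds the matrix and also inhibits several Adams, gave 149, 220 and 242 in wild type and 260, 248 and 367 in Aire-deficient cells. The lowest Aire-deficient array stood just above the highest wild-type one, so the groups did not overlap, and the difference was 0.53 ± 0.29 (95% interval -0.12 to 1.17, adjusted p = 0.44, limma). Timp1, a soluble inhibitor induced in inflammation, gave 38.6, 67.2 and 65.2 against 30.7, 50.1 and 41.5, lower in each pair of arrays, with overlapping groups and a difference of -0.47 ± 0.34. Timp2, the partner of Mmp14 in activating pro-Mmp2, was dim on all wild-type arrays, with 1.8, 2.4 and 1.87, and gave 3.52, 8.9 and 4.07 in Aire-deficient cells. It exceeded the dim limit on 1 array and was not tested, and 2 other Timp2 probe sets were dim on all 6.

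The cathepsins were the class with the largest share of tested genes, and their differences lay on both sides of 0. The median over 10 genes was 0.32, with 6 above 0 and 4 below, and the 8 widely expressed lysosomal cathepsins had the same median of 0.32. Without wild-type array 2 the median of the class was 0.16, and with the beta-actin term it was 0.06.

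With the probe sets used, the aspartic cathepsins Ctse and Ctsd had differences of opposite sign, and neither passed without the block. Ctse, known from gastric epithelium and from antigen-presenting cells, gave 42, 11 and 52.6 in wild type and 66.3, 178 and 119 in Aire-deficient cells, without overlap. The geometric means were 28.9 (SD 1.22, n = 3) and 112 (SD 0.72, n = 3), and the difference of 1.95 ± 0.57 had an adjusted p of 0.128 without and 0.0442 with the block (limma). Within the pairs the differences were 0.66, 4.02 and 1.18, so the pair of number 2 was the largest. Without wild-type array 2 the difference was 1.27 (adjusted p = 0.194), and with the block but without both arrays of number 2 it was 0.93 (adjusted p = 0.0934). With the block and the beta-actin term together it was 0.80 (adjusted p = 0.0601).

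Probe sets for Ctse disagreed. The one used can bind several family members, and a second, made from fewer probes, gave 26.6, 2.3 and 26.8 against 42.7, 56.6 and 48.2, also without overlap (difference 2.05, unadjusted p = 0.0236 in the limma fit over all probe sets). Both carried the same source sequence in the annotation, so they are not independent readings. The third, of the standard design and with another source sequence, gave 7.53, 3.78 and 5.09 against 2.58, 6.38 and 4.25. Its difference was -0.35, and it was too dim to be tested. With the probe sets of a gene averaged, the Ctse difference was 1.22 (adjusted p = 0.348). B cell markers had summed signals of 60.8 to 98.3 in wild type and 111 to 132 in Aire-deficient cells. Of these markers 0 of 4 tested passed without the block. With it Blk and Pax5 rose (adjusted p = 0.0238 and 0.0306, limma), where 2.59% of all tested genes rose. Blk held most of the sum, with 13.6, 49.1 and 27.1 against 41.1, 81.6 and 80.7, whereas Ms4a1 had a difference of -0.59 and Cd79a, too dim to be tested, -0.38. B cells carry CD45, for which the sorted cells were negative, and their part in the values of Ctse was not tested.

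Ctsd, the main aspartic protease of lysosomes, gave 57.8, 39.6 and 71 in wild type and 43.9, 20.9 and 51.4 in Aire-deficient cells. It was lower in each pair of arrays by 0.40, 0.92 and 0.46, the groups overlapped, and the difference was -0.60 ± 0.40 (adjusted p = 0.525, or 0.228 with the block, limma).

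The cysteine cathepsins make up most of the class. Ctsh, an aminopeptidase of lysosomes, gave 493, 89.2 and 366 in wild type and 645, 325 and 434 in Aire-deficient cells. Wild-type array 2, the array with the high beta-actin ratio, stood far below the other 5, and the difference of 0.83 ± 0.55 was 0.08 without it and 0.02 with the beta-actin term. Ctsl, which in thymic epithelium is known for degrading the invariant chain, gave 340, 153 and 85.7 in wild type and 266, 116 and 54 in Aire-deficient cells. Its signals varied more between replicate numbers than between genotypes, with number 1 highest and number 3 lowest in both groups. Each pair was lower in Aire-deficient cells, by 0.35, 0.40 and 0.67, and the blocked fit gave a difference of -0.47 ± 0.24 (adjusted p = 0.275, limma).

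Ctsf and Ctsz, cysteine cathepsins of the lysosome, were the other members of this class whose groups did not overlap. Ctsf gave 14.7, 12.9 and 16.2 in wild type and 23.9, 31.3 and 20.7 in Aire-deficient cells, a 1.72-fold difference (log2 0.78 ± 0.31, adjusted p = 0.267, limma). Ctsz gave 47.2, 52.3 and 48.9 against 59, 74 and 101, a 1.54-fold difference (log2 0.63 ± 0.31, adjusted p = 0.369, limma). Both were higher in each pair of arrays, and neither passed with the block (adjusted p = 0.172 and 0.205). Medullary epithelial markers did not move one way. None of 15 tested passed without the block, and with it Krt18 and Aire rose and Epcam and Krt19 fell (adjusted p = 0.0499, 0.0182, 0.0295 and 0.034, limma). With the block 3.7% of all tested genes fell and 2.59% rose. Epcam, which encodes the antigen of the G8.8 antibody, gave 234, 251 and 130 in wild type and 102, 79.8 and 86.9 in Aire-deficient cells, without overlap. The summed signal of 17 markers was 3421 to 4054 in wild type and 4342 to 4696 in Aire-deficient cells, but without H2-Aa, Cd74 and Aire the ranges of the other 14 overlapped, at 1014 to 1084 and 1035 to 1261. The part of these shifts in the values of Ctsf and Ctsz was not tested.

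Ctsb, Ctsc, Ctsa and Ctsk had overlapping groups. Ctsb, a broadly expressed cathepsin, gave 73.6, 65.8 and 115 against 80.3, 61.1 and 105, with a difference of -0.04 and a 95% interval of -0.78 to 0.70. The sign of that difference turned with the scaling, to 0.26 both on the values as deposited and after median scaling, and it was -0.20 without wild-type array 2. Other Ctsb probe sets of the standard design, with signals from 1.8 to 8.85, gave differences of 1.09 and -0.01. A further one, which can bind several family members, lay at the floor. Ctsc, which activates granule serine proteases, gave 62.2, 51.1 and 48.2 against 88.3, 75.3 and 44.9 (difference 0.32 ± 0.33). Other Ctsc probe sets gave differences of 0.61 and 0.05. Ctsa, a carboxypeptidase that protects lysosomal enzymes, had a difference of 0.31 ± 0.33. Ctsk, the collagen-degrading cathepsin of osteoclasts, gave 30.5, 14.8 and 22.5 against 18.5, 10.3 and 13.1 and was lower in each pair, by 0.72, 0.52 and 0.78 (difference -0.67 ± 0.38, adjusted p = 0.445, or 0.212 with the block, limma).

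Other genes of the same proteolytic network were taken from lists chosen by function. Their counts stand beside 1.33% lower and 0.387% higher among all tested genes without the block, and 3.7% and 2.59% with it. Of 6 tested genes of plasminogen activation, a cascade that can activate Mmps, 1 fell and 0 rose. It was S100a10, a plasminogen-binding partner of annexin A2, with 115, 100.2 and 136 in wild type and 39.6, 33.8 and 54.4 in Aire-deficient cells (difference -1.48 ± 0.31, adjusted p = 0.0425, limma). Its partner Anxa2, named after its values were seen, gave 149, 105 and 144 against 97, 87.4 and 79, without overlap and without passing (difference -0.58 ± 0.28). Of 19 lysosomal genes other than cathepsins 1 rose and 0 fell, with a median of 0.05. It was Npc2, a cholesterol carrier of the lysosome lumen, with 717, 617 and 727 against 1586, 1442 and 1153 (difference 1.01 ± 0.22, adjusted p = 0.0475, limma).

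None of the 4 tested genes of the cystatin and legumain list, cathepsin inhibitors and a lysosomal protease, passed without the block. Cst3, a secreted inhibitor of cysteine cathepsins, gave 142, 161 and 119 in wild type and 62, 73.7 and 119 in Aire-deficient cells (difference -0.77 ± 0.32). Kng1, a kininogen, gave 22.8, 50.4 and 31.5 against 12.2, 17.8 and 13.4, without overlap (difference -1.21 ± 0.36, adjusted p = 0.137, or 0.0318 with the block, limma). Among 14 tested membrane proteins known to be shed by Adams 0 passed without the block, with a median of -0.21. Kitl, the Kit ligand, gave 19.2, 11 and 19.6 against 50, 37.5 and 37.2, without overlap (difference 1.36 ± 0.34, adjusted p = 0.0771, or 0.0218 with the block, limma), and Cx3cl1, a membrane-bound chemokine, gave 12.2, 15.8 and 18.9 against 3.42, 7.32 and 12.5. Among 13 tested metallopeptidases of other families and their activators 0 passed with or without the block, with a median of -0.31. Bsg, known as an inducer of Mmps, gave 14.9, 15.3 and 29.5 against 6.2, 8.03 and 13.7, and the broad protease inhibitor A2m gave 7.93, 9 and 7.2 against 2.83, 1.95 and 5.33, both without overlap between the groups. A2m was dim on all 3 Aire-deficient arrays and passed the filter through its wild-type arrays alone, where it was at least 1.45-fold higher against the dim limit.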

How the data were processed

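Signal intensities on a linear scale, to 1 decimal, were used as the authors deposited them, 1 value per probe set and array. No label or header names the array software or its scaling. The table has 12488 probe sets, and 66 of them are controls and were not used. Of the other 12422, 10833 had 1 gene symbol, 396 had several and 1193 had none in the platform annotation. Names were updated through Entrez identifiers for 10817 of them.

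Signals were quantile normalized, raised to a floor of 1.8 (the pooled 20th percentile) and put on the log2 scale. A gene was represented by its probe set with the highest mean. Testing was limited to genes whose signal exceeded 5.53, the 40th percentile over all arrays, in 3 or more of 6 arrays. They were tested with lmFit and eBayes with a variance trend in limma 3.58.1 (R 4.3.3), Benjamini-Hochberg adjustment over 5950 genes and a threshold of 0.05. The unblocked fit was also run on simulated normal values without a floor and without an effect of the replicate number. That run did not check the blocked fit. Replicates are separate pools of 5 mice. The labels do not say what the replicate numbers mean. After group means were subtracted, same-numbered arrays had correlations of 0.372, 0.198 and 0.193, and arrays of different numbers -0.253 to 0.0676. The numbers were therefore taken to pair the arrays, from the data and not from the design. The number of arrays limits the precision.

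Members and lists were chosen with earlier results of these data known. Named by rule were called members, those with a difference of at least 1 on the log2 scale and no overlap, the 3 brightest genes of each class, and from each related list its called genes or the 2 with the smallest p. All other genes, Adam19 among them, were named after their values were seen. Alternatives covered scaling, floor, filter, variance model, array weights, probe set choice, replicate block, a beta-actin term and leaving out arrays. The block combined with another choice, and the block for the related and marker lists, were added after seeing the data.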

Additional observations from a re-analysis of the deposited data

How the results depend on the processing

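The counts of members past the threshold in limma, 0 lower and 0 higher, were the same under each scaling, floor, filter, variance and probe set alternative and without any 1 array. Array weights gave 1 lower. The replicate block gave 1 lower and 2 higher, and the same on the values as deposited. With the beta-actin term added to the block there were 2 lower (Mmp9, Mmp13) and 2 higher (Adam19, Timp3), and with every probe set tested 0 lower and 2 higher. Over the settings that left out 1 array, or both arrays of 1 number with the block, there were 0 to 1 lower and 0 to 2 higher. Over all genes 79 fell and 23 rose without a block, and 220 fell and 154 rose with it. On deposited values 80 fell and 63 rose, and with the block 178 fell and 219 rose, so the larger side turned. With median scaling 74 fell and 57 rose. Without a block, the counts were lowest without wild-type array 3 for those lower, at 6, and without Aire-deficient array 2 for those higher, at 1.

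Class medians moved in places. The Mmp median was -0.11 with no filter and -0.997 to -0.33 with 1 array left out. The Timp median was 0.53 with no filter. The Adam median moved by less than the spread of its array medians, to between 0.019 and 0.57. The cathepsin median became 0.51 with either other scaling, 0.064 with the beta-actin term and 0.16 to 0.51 with 1 array left out.

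Signs turned for genes that passed no test. With the beta-actin term Adam10 was -0.29, Mmp11 0.036 and Mmp17 0.054, and with the block as well Adam10 was -0.25, Adam28 0.29 and Mmp11 0.17. Ctsb was 0.26 without quantile normalization (with and without the block), after median scaling and with probe sets averaged, where Adam5 was 0.079. Mmp17 was 0.082 with array weights. Leaving out 1 array gave -0.15 to 0.59 for Adam10, -0.0052 to 1.17 for Adam15, -0.82 to 0.47 for Adam5, -0.23 to 0.21 for Ctsb, -1.06 to 0.090 for Ctsl, -0.21 to 0.073 for Mmp11 and -0.19 to 0.046 for Mmp17. With the block and a pair of arrays left out, Mmp17 was 0.013 (number 1), Adam10 -0.21, Adam28 0.21 and Mmp11 0.15 (number 2), and Ctsb 0.0066, Adam5 0.52 and Adam7 0.079 (number 3). The cause was not tested. Signals near the dim limit, as for Mmp11, Mmp17 and Adam7, limit what these arrays can show.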
